A study of Homo sapiens with 6 samples.

Results

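The 9 genes described here make the enzymes that set when CDK1 and CDK2 become active: the CDC25 phosphatases CDC25A, CDC25B and CDC25C, the inhibitory kinases WEE1 and PKMYT1, and the checkpoint kinases CHEK1, CHEK2, ATM and ATR. They were chosen by name, as the rows of the count table whose Ensembl identifier belongs to one of these genes, and they are 9 of the 27745 genes in that table. All 9 passed the filter on low counts.

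RNA-seq was performed on MDA-MB-231, an established cell line derived from a triple-negative breast cancer. The cells were infected with a lentivirus that carried either sh-TRC, the control hairpin, or 1 of 2 hairpins against the long non-coding RNA MIR100HG, named sh-MIR100HG-1 and sh-MIR100HG-2. Each of the 3 groups had 2 replicates, which the study calls biological replicates for the hairpins against MIR100HG. The origin of the control replicates is not given in the sources used here, so their spread may be technical. All 6 samples came from this 1 line with the same kind of vector. Both hairpin groups were compared with the same 2 control samples, so these comparisons are not independent of each other.

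CDK1 and CDK2, bound to their cyclins, drive cells into S phase and into mitosis, and they are held inactive by phosphates on residues near the ATP pocket. WEE1 and PKMYT1 (also called MYT1) add these phosphates and the CDC25 phosphatases remove them, so the balance of the opposing enzymes sets the timing. When DNA is damaged or replication stalls, ATM and ATR activate CHEK2 and CHEK1, which phosphorylate CDC25 proteins and so slow the cycle. These enzymes are regulated largely as proteins, and the data here are RNA levels in bulk samples, where fewer cells of a phase and less RNA per cell cannot be told apart.

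MIR100HG is the host gene of miR-100, let-7a-2 and miR-125b-1. Their mature sequences, from RefSeq, are shown because 1 gene of the set has sites for more than 1 of them. The targets of both hairpins are shown beside them, since a hairpin can also act through its own seed. In the microRNAs the capitals mark the seed, bases 2 to 8, and in the targets they mark the 7 bases that pair with the seed of the guide.
hsa-miR-100-5p: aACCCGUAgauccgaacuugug
hsa-let-7a-5p: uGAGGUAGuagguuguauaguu
hsa-miR-125b-5p: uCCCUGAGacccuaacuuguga
sh-MIR100HG-1 target, chr11:121962132-121962152, minus strand, GRCh37: ttcctctgtttgtACTTAAAt
sh-MIR100HG-2 target, chr11:121961961-121961981, minus strand, GRCh37: gagagtgacctacAGAATAAa

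Exact matches to these seeds were searched in the 3′UTR of 1 transcript per gene (GENCODE on GRCh37). CDC25A, whose annotated 3′UTR has 1799 bases, held 2 matches to the let-7a seed and 1 to the miR-100 seed, which start at bases 136, 552 and 1526 of the 3′UTR. The 3 sites are on the minus strand and are given with 11 bases on each side, the match in capitals.
CDC25A, let-7a, chr3:48200282-48200310: atgccttaaacCTACCTCccacactccca
CDC25A, let-7a, chr3:48199866-48199894: tatcccagggaCTACCTCggcttttaatt
CDC25A, miR-100, chr3:48198892-48198920: agttgctgtgtTACGGGTttgagttacat

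CDC25B and CHEK1 each held 1 let-7a match, both on the plus strand, at bases 20 and 1024 of their 3′UTRs.
CDC25B, let-7a, chr20:3785617-3785645: cgccagtcctgCTACCTCccttgcctttc
CHEK1, let-7a, chr11:125526228-125526256: agagtaagaccCTACCTCtaataaaaatt

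Of 13933 3′UTRs searched in the same way, 10.8% held a let-7a match, 1.28% a miR-100 match and 0.330% both. No other pair of seeds was counted, and this is the pair that CDC25A held. None of the 9 genes held a miR-125b match, which 16.1% of all 3′UTRs did. The 3′UTR of WEE1, of 1383 bases, held no match to any of the 3 microRNA seeds or to either guide. For the guides, ATM held 1 match to the seed of sh-MIR100HG-1 (19.2% of all 3′UTRs) and CHEK1 1 match to that of sh-MIR100HG-2 (20.3%). These matches describe the letters only, and binding was not measured here. The shares over all 3′UTRs were not matched for length. By qPCR, the study found the microRNAs of this host gene unchanged when MIR100HG was overexpressed. This was in MDA-MB-231 and in BT549, another triple-negative line, and their levels after knockdown are not given there.

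MIR100HG, the target of the hairpins, checks the labels. It stood at 41.9 and 58.5 CPM (counts scaled to library size with the TMM method of edgeR) in the controls, at 15.2 and 13.2 with sh-MIR100HG-1 and at 16.6 and 10.4 with sh-MIR100HG-2, with no overlap between control and knockdown. Total counts per sample ranged from 43804736 to 64588388. Markers of a mesenchymal basal line were high in every sample (VIM from 1563 to 2111 CPM of the library total, EGFR from 390 to 515), and PGR had 1 count in all 6 samples together. ESR1 ranged from 0.114 to 2.86 and ERBB2 from 69.2 to 117, while the leukocyte marker PTPRC stayed at or below 0.736. Raw counts of the 9 genes were between 712 (CDC25C) and 15958 (CDC25B) per sample.

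Levels between genes were compared per length, as RPKM (CPM per kilobase of the exon length deposited with the counts). Over all 6 samples CDC25B was highest at a mean of 62.6 RPKM, above 95.7% of the 15372 genes tested. CDC25A followed at 18.4, CHEK1 at 11.2, WEE1 at 9.26, CDC25C at 8.29, PKMYT1 at 7.97 and CHEK2 at 5.04. ATM at 3.38 and ATR at 2.96 were lowest, above 46.2% and 43.9% of genes. In this order CDC25B was separate in every sample from the others, and the sample ranges of all other neighbours overlapped.

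The order differed between control and knockdown. In the controls CDC25A at 7.93 ± 1.25 RPKM (SD, n = 2) lay close to PKMYT1 at 8.22 ± 0.355 and CDC25C at 7.79 ± 0.297, and WEE1 at 4.88 ± 0.465 lay below CHEK2 at 5.38 ± 1.55. With sh-MIR100HG-1, CDC25A stood at 21.3 ± 7.15 and WEE1 at 11.7 ± 1.34 RPKM, and with sh-MIR100HG-2 at 26.0 ± 8.46 and 11.2 ± 3.37. In both knockdown groups CDC25A was the second highest of the 9 genes by mean RPKM, below CDC25B.

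**Figure D1:**
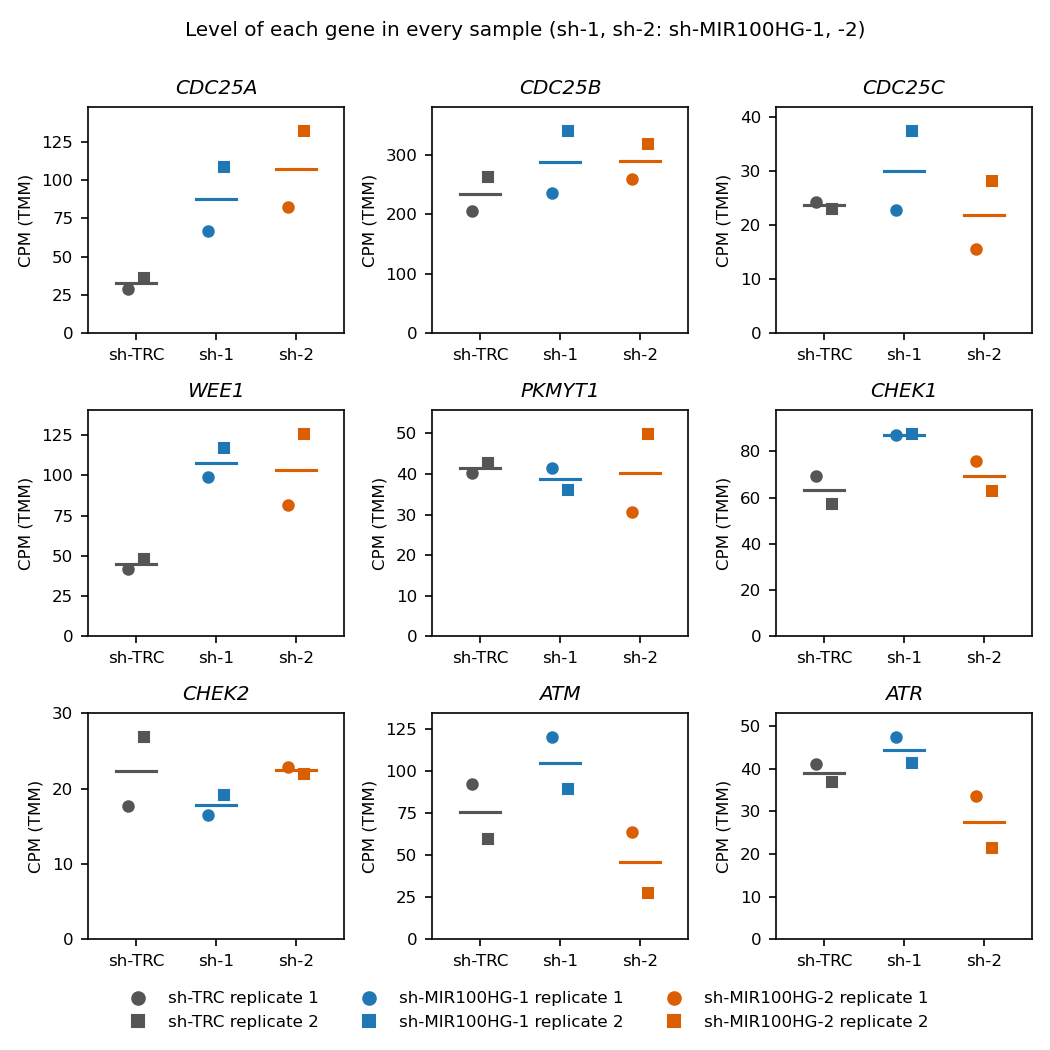
TMM-scaled CPM (vertical axis, from 0) of the 9 genes in every sample, with sh-TRC, sh-MIR100HG-1 (sh-1) and sh-MIR100HG-2 (sh-2) on the horizontal axis. Circles are replicate 1, squares replicate 2 and lines the group means. All 4 knockdown samples lie above both controls for CDC25A and WEE1, and the groups overlap for the other 7 genes.

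The first question is whether the genes differ between the 4 knockdown and the 2 control samples. CDC25A and WEE1, a phosphatase that activates CDKs and a kinase that inhibits them, were both higher in every knockdown sample, and the other 7 genes overlapped between the groups. In the quasi-likelihood test of edgeR, with Benjamini-Hochberg adjustment over all 15372 genes, 0 of the 9 genes and 0% of all genes passed an adjusted p of 0.05, and this held for the mean of both hairpins against control, for each hairpin alone and for the hairpins against each other. At an unadjusted p under 0.05, 2 of the 9 genes, CDC25A and WEE1, were past the threshold in knockdown against control (7.68% of all genes), in sh-MIR100HG-1 against control (6.87%) and in sh-MIR100HG-2 against control (8.86%). Of all genes tested, 17.5% had all 4 knockdown samples beyond both controls, in either direction. edgeR's likelihood ratio test, which treats the dispersion as known, called 0.709% of genes in knockdown against control at an adjusted p of 0.05, and DESeq2 called 0.846%. CDC25A and WEE1 were the 2 of the 9 genes called by each of these tools. The study names both among the cell cycle genes changed by the knockdown in these same data, so their count is not an independent result. Its methods give a cut-off of a log2 fold change beyond 2 in either direction. Here the mean of both hairpins against control was below that, at 1.57 for CDC25A and 1.23 for WEE1. The median log2 fold change (log2FC) of the 9 genes was 0.11, against -0.04 over all genes tested.

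CDC25A (ENSG00000164045.11_2, chr3:48198636-48229892, minus strand, GRCh37) removes the inhibitory phosphates from CDK2 and CDK1 and acts at entry into S phase as well as into mitosis. All gene positions are on GRCh37, and only the promoters further on are on GRCh38.p14. It had 29.0 and 36.3 CPM in the controls, 66.8 and 108 with sh-MIR100HG-1, and 82.5 and 132 with sh-MIR100HG-2. The lowest knockdown sample was above the higher control. Per sample, the knockdown samples were 1.04, 1.74, 1.34 and 2.02 above the control mean on the log2 scale, and the controls lay 0.16 to either side of it. The mean of both hairpins against control gave a log2FC of 1.57 (95% interval 0.89 to 2.25), which is a fold of 2.97. Its p was 6.33e-04 before and 0.381 after Benjamini-Hochberg adjustment in edgeR. DESeq2 gave an adjusted p of 4.45e-04 for it.

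The single hairpins gave similar values for CDC25A against the shared controls, a log2FC of 1.42 (SE 0.32, interval 0.68 to 2.16) with sh-MIR100HG-1 and of 1.72 (SE 0.33, interval 0.97 to 2.46) with sh-MIR100HG-2. The difference between the hairpins was 0.29, with a 95% interval from -0.44 to 1.02. An exact permutation test of 4 against 2 samples over all 15 splits, two-sided, gave p = 0.0667 for CDC25A and for WEE1, which is the smallest p this design allows.

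WEE1 (ENSG00000166483.10_1, chr11:9595228-9615004, plus strand, GRCh37) is the nuclear kinase that phosphorylates CDK1 and CDK2 on the inhibitory tyrosine. Its levels were 42.1 and 48.2 CPM in the controls, 99.2 and 117 with sh-MIR100HG-1, and 81.4 and 126 with sh-MIR100HG-2. All 4 knockdown samples were above both controls, the lowest being replicate 1 of sh-MIR100HG-2. The fold of the mean of both hairpins against control was 2.34, with a log2FC of 1.23 (interval 0.69 to 1.77). Its p was 7.33e-04 before and 0.381 after Benjamini-Hochberg adjustment in edgeR, and DESeq2 gave an adjusted p of 0.00149. With sh-MIR100HG-1 the log2FC was 1.26 (SE 0.26) and with sh-MIR100HG-2 it was 1.20 (SE 0.26). Between the hairpins it differed by -0.06, with an interval from -0.65 to 0.53. WEE1 has 2 pseudogenes in the annotation and 0 in the count table, so reads that fit both are uncertain.

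CDC25A and WEE1 act in opposite directions on the same substrates, and their ratio per length moved less than either level. CDC25A per WEE1 was 1.55 and 1.69 in the controls, 1.51 and 2.09 with sh-MIR100HG-1, and 2.27 and 2.36 with sh-MIR100HG-2. The controls lay within the range of the sh-MIR100HG-1 samples, and both sh-MIR100HG-2 samples were above all others. Across the 6 samples the log2 CPM of CDC25A and WEE1 had a Pearson r of 0.965, a description over samples that share the 3 groups.

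The genes closest in pattern to each were found by the Pearson r of log2 CPM over the 6 samples, among all genes tested with a symbol. For CDC25A these were MAPRE1 (r = 0.997), a microtubule end-binding protein, FAM234B (0.996) and the syntaxin STX3 (0.993). For WEE1 they were KCTD14 (0.998), the flap endonuclease FEN1 (0.992) and the histone methyltransferase NSD2 (0.989). These genes differed less between knockdown and control than CDC25A or WEE1. MAPRE1 had a log2FC of 0.51, FEN1 of 0.49 and NSD2 of 0.42 in knockdown against control, and STX3 one of 1.15.

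CDC25B (ENSG00000101224.17_1, chr20:3767419-3786768, plus strand), which starts the activation of CDK1 at the centrosome, had 205 and 262 CPM in the controls, 236 and 339 with sh-MIR100HG-1, and 259 and 319 with sh-MIR100HG-2. The groups overlapped, with 1 sample of each knockdown group below the higher control. The log2FC in knockdown against control was 0.30, with an interval from -0.21 to 0.82. CDC25C (ENSG00000158402.18_2, chr5:137620954-137674044, minus strand), the phosphatase that completes the activation of CDK1 at mitosis, had 24.4 and 23.1 CPM in the controls, 22.8 and 37.4 with sh-MIR100HG-1, and 15.7 and 28.2 with sh-MIR100HG-2. The controls lay between the replicates of sh-MIR100HG-2, which differed from each other more than the group means did, and the log2FC was 0.11 (interval -0.58 to 0.80).

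By share of the summed RPKM of the 3 phosphatases, CDC25A made up 11.2% and 11.4% in the controls, 20.7% and 22.5% with sh-MIR100HG-1, and 23.5% and 27.8% with sh-MIR100HG-2. CDC25B held the largest share in every sample, at 76.0% and 78.7% in the controls and from 64.2% to 70.4% in the knockdown samples. The share of CDC25C was 12.8% and 9.84% in the controls and ranged from 6.05% to 10.5% in the knockdown samples, so its groups overlapped. These shares are within 1 sample and do not depend on library scaling.

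**Figure D2:**
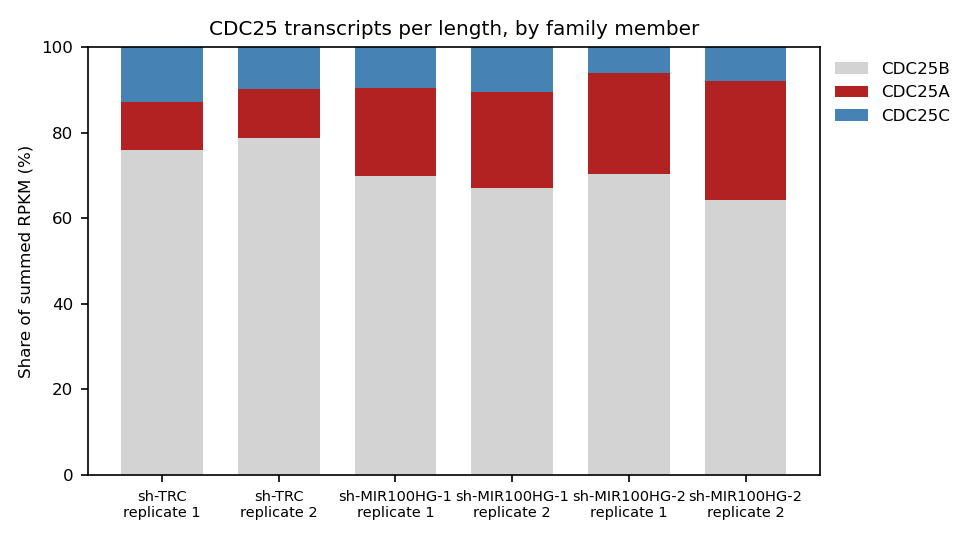
Share of the summed RPKM of CDC25A, CDC25B and CDC25C (vertical axis, percent) in each of the 6 samples (horizontal axis), 1 stacked bar per sample. CDC25A takes 11.2% and 11.4% in the controls and at least 20.7% in every knockdown sample, and CDC25B is the largest part of each bar.

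Promoter letters are shown for CDC25A, which has 1 start in the table, and for 1 of the 4 starts of CDC25C, chosen after the search because it was the only 1 of them with a CHR match. The 250 bases before each start were taken from RefSeq (GRCh38.p14), where 7 of the 9 genes had an entry. WEE1 and PKMYT1 had none, so their promoters were not searched. Both strands were searched for E2F letters (TTTGGCGC, TTTCCCGC, TTTCGCGC or TTTGCCGC), for the CHR element (TTTGAA or TTCGAA) and for CCAAT. Capitals mark the matches, and CCAAT reads ATTGG where it is on the other strand.
CDC25A, chr3:48188418-48188667, minus strand: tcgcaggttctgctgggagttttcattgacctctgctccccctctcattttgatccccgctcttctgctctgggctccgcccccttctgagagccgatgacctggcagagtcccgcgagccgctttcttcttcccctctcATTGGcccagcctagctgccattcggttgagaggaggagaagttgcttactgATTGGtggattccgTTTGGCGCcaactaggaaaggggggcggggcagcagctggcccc
CDC25C, chr5:138331805-138332054, minus strand: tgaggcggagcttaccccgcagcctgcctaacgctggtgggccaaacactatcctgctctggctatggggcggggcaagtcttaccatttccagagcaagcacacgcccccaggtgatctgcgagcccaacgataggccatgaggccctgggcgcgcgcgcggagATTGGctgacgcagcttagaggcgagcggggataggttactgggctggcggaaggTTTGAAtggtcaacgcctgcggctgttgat

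The CDC25A promoter held 1 E2F match, 44 bases before the start, and 2 CCAAT matches at 110 and 58 bases. The printed CDC25C start held 1 CHR match at 30 bases and 1 CCAAT match at 85 bases before it. The other 3 starts of CDC25C held no CHR match and 0, 3 and 0 CCAAT matches, and no start of CDC25C held an E2F match. Of 35116 promoters of this length, 2.79% held an E2F match, 14.3% a CHR match and 32.0% a CCAAT match. CDC25A was the only 1 of the 7 genes with an E2F match, CHR matches were also found before 1 start each of CDC25B and ATM, and ATR had none of the 3. Whether any factor binds these letters was not measured.

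PKMYT1 (ENSG00000127564.16_2, chr16:3018025-3030540, minus strand, GRCh37), the membrane-bound kinase that inhibits CDK1, had 40.1 and 42.7 CPM in the controls, 41.5 and 36.1 with sh-MIR100HG-1, and 30.5 and 49.8 with sh-MIR100HG-2. Both controls lay inside the range of the sh-MIR100HG-2 samples, the widest of the 3 groups. The log2FC in knockdown against control was -0.07, with an interval from -0.61 to 0.47, which leaves out a change of the size seen for WEE1. By share of the RPKM of both kinases, WEE1 made up 36.4% and 38.1% in the controls. In the 4 knockdown samples it made up from 56.6% to 63.8%. Per length, PKMYT1 was thus the larger part in both controls and WEE1 in every knockdown sample. This switch depends on the division by exon length, 9239 bases for WEE1 and 5034 for PKMYT1. By CPM, WEE1 was above PKMYT1 in every sample, at 42.1 against 40.1 and 48.2 against 42.7 in the controls. Exons of PKMYT1 overlap PAQR4, on the other strand, over 1233 bases, or 24.5% of its length, and KREMEN2 over 7.15%. Since the strand setting of the counting is not stated, part of its reads may belong to these neighbours or be left out.

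CHEK1 (ENSG00000149554.12_1, chr11:125495031-125546150, plus strand), the effector kinase of ATR, had 69.5 and 57.3 CPM in the controls, 87.1 and 87.4 with sh-MIR100HG-1, and 75.6 and 62.7 with sh-MIR100HG-2. Both sh-MIR100HG-1 samples were above every other sample, and the sh-MIR100HG-2 samples overlapped the controls. The log2FC was 0.46 (interval -0.04 to 0.96, unadjusted p of 0.0665) with sh-MIR100HG-1 and 0.13 (interval -0.37 to 0.62) with sh-MIR100HG-2, and the difference between the hairpins was -0.33 (interval -0.83 to 0.16). CHEK2 (ENSG00000183765.20_1, chr22:29083731-29138410, minus strand), the effector kinase of ATM, had 17.7 and 26.8 CPM in the controls, 16.6 and 19.1 with sh-MIR100HG-1, and 22.9 and 22.0 with sh-MIR100HG-2. Here the controls spanned all but the lowest sample, and the log2FC in knockdown against control was -0.15 (interval -0.69 to 0.38).

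CHEK1 was above CHEK2 per length in every sample. The ratio was 2.47 and 1.35 in the controls, 3.32 and 2.88 with sh-MIR100HG-1, and 2.08 and 1.80 with sh-MIR100HG-2, so that only the sh-MIR100HG-1 samples lay outside the control range. CHEK2 has 7 pseudogenes in the annotation and none of them is in the count table, so reads that fit both are uncertain, and 7.27% of its exon length overlaps HSCB. Larger overlaps were those of CDC25C with FAM53C (9.62% of its exon length) and of ATR with the pseudogene EIF2AK1P1 (16.4%). CHEK1 overlapped the long non-coding RNA ENSG00000288907, on the other strand, over 11.8% of its exon length. Neither this RNA nor EIF2AK1P1 is in the count table.

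The hairpins were then compared with each other. ATM and ATR, the 2 kinases at the top of the damage response, were lower with sh-MIR100HG-2 than with sh-MIR100HG-1 and were the 2 of 9 genes at an unadjusted p under 0.05, beside 9.45% of all genes. Neither passed the adjusted threshold after Benjamini-Hochberg adjustment in edgeR (adjusted p = 0.509 for both). CDC25A and WEE1, the genes that stood apart in knockdown against control, had intervals across 0 in this comparison.

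ATM (ENSG00000149311.17_1, chr11:108093211-108239829, plus strand), which responds to DNA double-strand breaks, had 92.0 and 59.4 CPM in the controls, 120 and 89.5 with sh-MIR100HG-1, and 63.8 and 27.8 with sh-MIR100HG-2. Replicate 2 of sh-MIR100HG-2 was the lowest of all samples, at 1390 counts against 2896 in replicate 1. Between the hairpins, as sh-MIR100HG-2 minus sh-MIR100HG-1, the log2FC was -1.19 (SE 0.40, interval -2.11 to -0.28) with an unadjusted p of 0.0168, and the difference was -0.71 without replicate 2 of sh-MIR100HG-2 and -1.92 without its replicate 1. Against the controls ATM was at 0.47 (interval -0.44 to 1.37) with sh-MIR100HG-1 and at -0.72 (interval -1.63 to 0.19) with sh-MIR100HG-2, on opposite sides of 0, and their mean gave -0.13 (interval -0.91 to 0.65).

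ATR (ENSG00000175054.14_2, chr3:142168077-142297668, minus strand), which responds to stalled forks and single-stranded DNA, had 41.0 and 37.0 CPM in the controls, 47.4 and 41.3 with sh-MIR100HG-1, and 33.6 and 21.5 with sh-MIR100HG-2. As for ATM, both sh-MIR100HG-2 samples were below both sh-MIR100HG-1 samples, and replicate 2 was the lowest. The log2FC between the hairpins was -0.69 (SE 0.27, interval -1.30 to -0.08) with an unadjusted p of 0.0314, and -0.40 without replicate 2 of sh-MIR100HG-2. The log2 CPM of ATM and ATR had a Pearson r of 0.981 over the 6 samples, and the RPKM ratio of ATM to ATR ranged from 0.722 to 1.42. Against the controls ATR was at 0.18 with sh-MIR100HG-1 and at -0.50 with sh-MIR100HG-2.

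ATM and ATR have the longest exon sequence of the 9 genes, 22317 and 12496 bases, and long genes as a class also differed between these samples. The median of 262 genes of like length to ATM, relative to the control mean on the log2 scale, was 0.17 and 0.14 in the sh-MIR100HG-1 samples and 0.02 and -0.24 in the sh-MIR100HG-2 samples. ATM itself stood at 0.70, 0.28, -0.21 and -1.41 in these samples. For 1890 genes of like length to ATR the medians were 0.13, 0.11, 0.06 and -0.12, and ATR stood at 0.28, 0.08, -0.21 and -0.85. With the trend on length removed, the log2FC between the hairpins was -0.98 for ATM and -0.54 for ATR. The part of length in these differences beyond this was not tested.

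**Figure D3:**
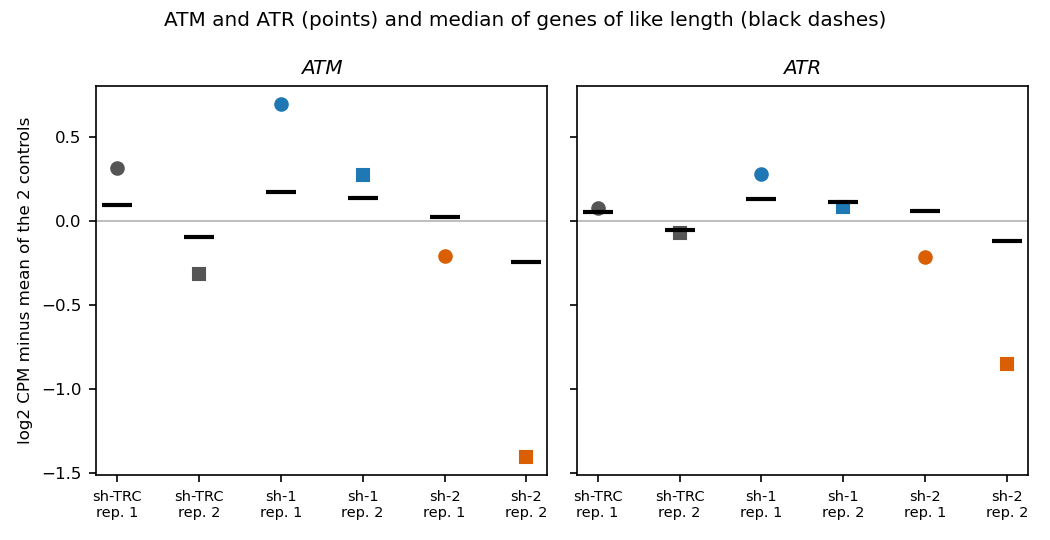
ATM (left) and ATR (right) in each sample as log2 CPM minus the mean of both controls (vertical axis), with samples on the horizontal axis and sh-1 and sh-2 for the MIR100HG hairpins. Points are the gene and black dashes the median of genes of like length (262 for ATM, 1890 for ATR). Both genes are lowest in replicate 2 of sh-2, at -1.41 and -0.85, where the dashes lie at -0.24 and -0.12.

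**Figure D4:**
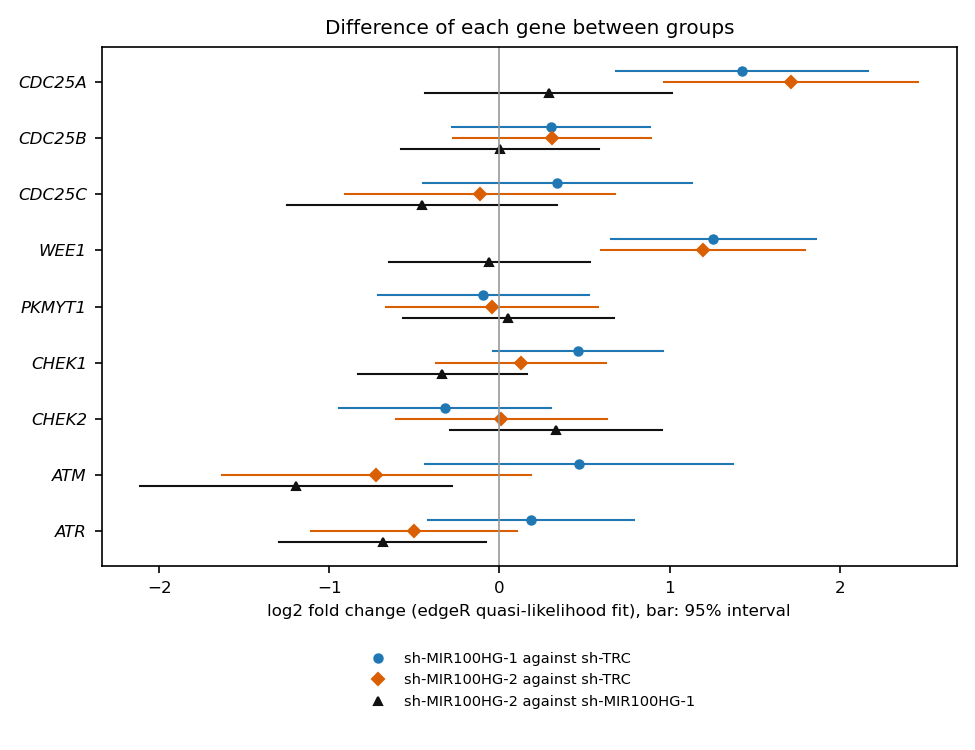
Log2 fold change of the 9 genes (horizontal axis) for each hairpin against control and for the hairpins against each other, from the edgeR quasi-likelihood fit, with 95% intervals as bars. The intervals of CDC25A and WEE1 lie above 0 for both hairpins against the shared controls, and those of ATM and ATR lie below 0 only between the hairpins.

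The surrounding pathway was described with 9 lists of genes. Among 12 genes of the CDK complexes and their activating kinase, 0 were at an unadjusted p under 0.05 in knockdown against control (7.68% of all genes), with a median log2FC of -0.08. Cyclin E1 (CCNE1) had the smallest p of them, at a log2FC of 0.59. Between the hairpins 2 of the 12 were past this threshold, beside 9.45% of all genes, both lower with sh-MIR100HG-2: CDK1 at -1.12 and CCNH, the cyclin of the CDK-activating kinase, at -0.89. CDK1, the substrate shared by the phosphatases and kinases above, had 133 and 81.4 CPM in the controls, 123 and 144 with sh-MIR100HG-1, and 67.8 and 55.1 with sh-MIR100HG-2. Both sh-MIR100HG-2 samples were below all others.

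Of 20 genes that bind, phosphorylate or degrade CDC25 and WEE1 proteins, 1 was at an unadjusted p under 0.05 in knockdown against control, no larger a share than the 7.68% of all genes. This was YWHAG, a 14-3-3 protein of the family that holds phosphorylated CDC25 in the cytoplasm. It had 209 and 275 CPM in the controls, 297 and 353 with sh-MIR100HG-1, and 396 and 435 with sh-MIR100HG-2, a log2FC of 0.60, with all knockdown samples above both controls, as 17.5% of all genes lay beyond them in 1 direction or the other. YWHAE had a log2FC of 0.40 and SFN of 0.48 without passing. Between the hairpins BORA, the activator of AURKA and PLK1, was lower with sh-MIR100HG-2 at -0.73.

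Sensors and adaptors that act with ATR and ATM were counted next. Of 14 genes on the ATR side 13 were tested, and ATRIP was not among the genes tested. In knockdown against control 0 of them were at an unadjusted p under 0.05. Between the hairpins the list median was -0.45 beside -0.01 over all genes. There 3 genes were past this threshold, beside 9.45% of all genes, each lower with sh-MIR100HG-2. They included TOPBP1, the activator of ATR, at -0.81 and WDHD1 at -0.77. On the ATM side, NBN, a subunit of the MRE11 complex that recruits ATM to breaks, was the 1 of 12 genes past this threshold in knockdown against control (7.68% of all genes), at -0.74. It had 79.5 and 58.1 CPM in the controls, 40.3 and 68.4 with sh-MIR100HG-1, and 31.1 and 31.2 with sh-MIR100HG-2, so that 1 knockdown sample lay between the controls. MRE11 (-0.76) and NBN (-0.80) were the 2 of 12 past it between the hairpins (9.45% of all genes), lower with sh-MIR100HG-2.

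Of the remaining lists, 0 of 10 other kinases of the ATM family and their chaperones and 0 of 10 phosphatases and kinases of checkpoint exit were past the threshold in knockdown against control. Between the hairpins TTI2, a chaperone subunit for these kinases, was higher with sh-MIR100HG-2 at 0.80. Among 10 genes of the p53 arm, ZMAT3 was higher at 0.66, and between the hairpins CDKN1A, the CDK inhibitor p21, was higher with sh-MIR100HG-2 at 0.91 and RRM2B lower at -0.92. CDKN1A had 157 and 195 CPM in the controls, 127 and 186 with sh-MIR100HG-1, and 305 and 285 with sh-MIR100HG-2. The p53 list thus had 1 of 10 genes past the threshold in knockdown against control and 2 of 10 between the hairpins, beside 7.68% and 9.45% of all genes. PPM1D is in the p53 list and in that of checkpoint exit.

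S phase and G2/M genes were counted because the RNA of several CDC25 and checkpoint genes is known to vary through the cell cycle. Of 16 S phase genes, 1 was past an unadjusted p of 0.05 in knockdown against control, CDC6 at 0.61, a share near the 7.68% of all genes, and 0 were between the hairpins. Of 16 G2/M genes, 0 were past it in knockdown against control. Between the hairpins 7 of the 16 were past it, beside 9.45% of all genes, and these 7 were lower with sh-MIR100HG-2, among them HMMR at -1.25 and TOP2A at -0.75. The mean log2 level of the G2/M genes relative to the controls was 0.11 and 0.06 with sh-MIR100HG-1 and -0.33 and -0.51 with sh-MIR100HG-2. Between the hairpins this mean thus moved with ATM, ATR and CDK1. The controls themselves were at 0.14 and -0.14. Both sh-MIR100HG-1 samples lay between them, and both sh-MIR100HG-2 samples lay below both. The mean of the S phase genes was 0.14 and 0.10 with sh-MIR100HG-1 and 0.01 and 0.20 with sh-MIR100HG-2. In the controls it was -0.08 and 0.08, so replicate 1 of sh-MIR100HG-2 lay between them. For CDC25A and WEE1 all 4 knockdown samples were higher than both controls. The part of cell cycle phase in any of these levels was not tested.

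**Figure D5:**
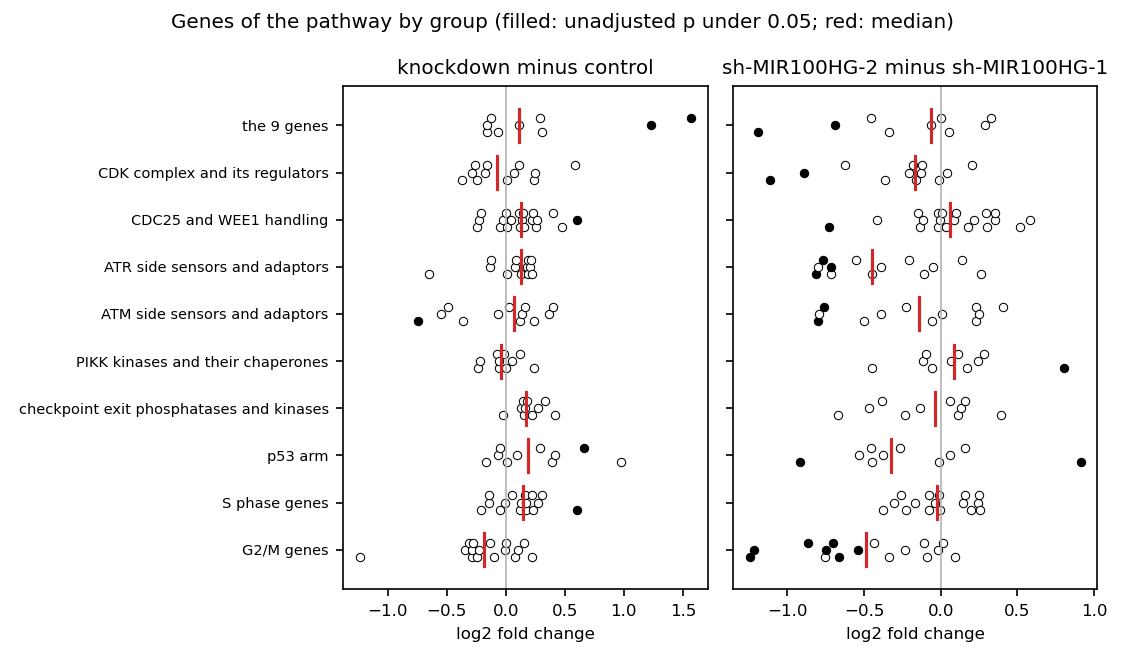
Log2 fold change (horizontal axes) of every tested gene in the 9 genes and in 9 pathway lists (rows), for knockdown minus control on the left and sh-MIR100HG-2 minus sh-MIR100HG-1 on the right. Filled points have an unadjusted p under 0.05 and red bars are list medians. CDC25A and WEE1 are the 2 filled points farthest to the right in the left panel, and 7 filled G2/M genes lie left of 0 in the right panel.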

How the data were processed

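The authors deposited raw counts per gene, made from reads mapped to GRCh37 with STAR (version 2.5.2a in the submitters' processing notes), the GENCODE annotation of that build and FeatureCounts. The strand setting and the handling of reads with several positions are not given in the sources used here. Samples were grouped by their labels. The members, gene lists and motifs were chosen with earlier results of these data known, and listed genes are named by the smallest unadjusted p (up to 3 in knockdown against control and up to 2 between hairpins).

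The filter on low counts, a minimum of 5, dropped 12373 genes that fell below it in 3 or more samples and left 15372. TMM normalization and quasi-likelihood tests of edgeR 4.0.16 (R 4.3.3) were used in 1 model of the 3 groups, with 3 residual degrees of freedom, a prior of 5.37 and a common biological coefficient of variation of 27.8%. Benjamini-Hochberg adjustment covered every gene tested. Log2 values per sample are of CPM + 0.125, and values are given as mean ± SD. The fit was also run on simulated data, but the outcome is not given here and no result rests on it. DESeq2 1.42.0, limma 3.58.1 (voom), other normalizations, a replicate block and each sample left out in turn were alternatives. Sequences were searched with Python 3.11.15.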

Additional observations from a re-analysis of the deposited data

How the results depend on the processing

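The adjusted threshold was passed by CDC25A and WEE1 in 3 of 19 alternatives (no filter on low counts, DESeq2 and the likelihood ratio test of edgeR) in knockdown against control and for each hairpin, and ATM passed between the hairpins only without the filter. Without the filter 392, 227, 517 and 679 genes were called in knockdown against control, sh-MIR100HG-1 against control, sh-MIR100HG-2 against control and between the hairpins. DESeq2 called 130, 66, 167 and 103 and the likelihood ratio test 109, 34, 121 and 91. With the hairpin groups alone in the fit 7 genes were called between them, and the other alternatives outside single samples called 0. Leaving out 1 sample at a time gave 0 to 0, 0 to 3, 0 to 4 and 0 to 7 genes. The cause of these differences was not tested.

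The log2FC of CDC25A and WEE1 in knockdown against control ranged from 1.37 to 1.74 and from 1.05 to 1.37 with single samples left out. Values near 0 changed sign. With the length trend removed, an alternative chosen after the data were seen, PKMYT1 with sh-MIR100HG-2 was 0.037 and WEE1 between the hairpins 0.072. CHEK2 with sh-MIR100HG-2 was -0.050 with upper quartile normalization and -0.083 by library total only, where CDC25B and PKMYT1 between the hairpins were -0.036 and -0.0044. With single samples left out, the ranges that crossed 0 in knockdown against control were -0.13 to 0.29 (CDC25C), -0.27 to 0.086 (PKMYT1), -0.42 to 0.17 (CHEK2) and -0.49 to 0.22 (ATM). With sh-MIR100HG-1 they were -0.068 to 0.66 (CDC25C) and -0.59 to 0.0081 (CHEK2). With sh-MIR100HG-2 they were -0.60 to 0.25 (CDC25C), -0.45 to 0.27 (PKMYT1), -0.016 to 0.27 (CHEK1) and -0.26 to 0.34 (CHEK2). Between the hairpins they were -0.086 to 0.70 (CDC25A), -0.23 to 0.30 (CDC25B), -0.41 to 0.22 (WEE1) and -0.34 to 0.36 (PKMYT1).

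Replicate numbers did not pair the controls with the hairpin groups. The correlations of same-numbered deviations from the group means were -0.21 (control and sh-MIR100HG-1) and 0.02 (control and sh-MIR100HG-2). Between the hairpin groups the correlation was 0.50, so their same-numbered replicates shared part of their deviation. With a replicate block the log2FC of CDC25A was 1.54 and that of WEE1 1.21 in knockdown against control, and 0 genes were called in every comparison. With the numbers of the controls crossed, chosen after the data were seen, 0 genes were called as well. In knockdown against control, 1180 genes were at an unadjusted p under 0.05 in the main fit. With the block they were 1580, and with the controls crossed 1698. With 2 samples per group, only differences well beyond the replicate spread could pass.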
